A study of Homo sapiens with 9 samples.

Results

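The genes described here are the human Wnt ligands, their receptors and co-receptors, the R-spondins and LGR receptors, the secreted antagonists, and 4 intracellular genes of the same pathway (AXIN1, AXIN2, LEF1 and TCF7). They are the genes whose symbols match a fixed pattern of Wnt family names, chosen with earlier results of these data known, and are 51 of the 58381 genes in the expression tables. RNA-seq was done on the Ewing sarcoma line TC-32, which carries the EWSR1::FLI1 fusion, in 3 groups of 3 libraries. The RFP group carried the lentiviral vector pLOC with RFP. The ETS1-Low and ETS1-High groups carried pLOC with a synthetic human cDNA of ETS1, an ETS family transcription factor, and the design set the ETS1-High level to that of cells depleted of the fusion. The treatment text given for all 9 libraries describes selection with puromycin and sorting of single cells. It does not say how many clones stand behind a group, so a difference between groups and a difference between clones cannot be told apart. The labels do not describe the libraries of a group as separate cultures, so the p-values measure the spread between these libraries, which may be technical.

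Wnt ligands are secreted, lipid-modified proteins that bind Frizzled receptors on the cell surface. With the co-receptors LRP5 or LRP6, Frizzled binding stops the Axin-containing complex from marking beta-catenin for breakdown, and beta-catenin then acts in the nucleus with LEF1 and the TCF proteins; other Wnt proteins signal through Frizzled, ROR or RYK without beta-catenin. R-spondins and their LGR receptors keep Frizzled at the surface, while the secreted Frizzled-related proteins (SFRPs) bind Wnt ligands and the Dickkopf proteins (DKKs) act mostly on LRP5 and LRP6. Ewing sarcoma cells are known to express DKK2 and LGR5.

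Of the 51 genes, 34 passed the filter on low counts and were tested, and 17 did not. FRZB, SFRP2, FZD4 and DKK3 were the 4 members with the largest rise in ETS1-High against RFP, by 76.3-, 68.6-, 14.9- and 13.6-fold, while SFRP1 and LEF1 fell to a few counts per library. Of the 34 tested members, 30 (88.2%) were called in ETS1-High against RFP at an adjusted p under 0.05, 14 higher and 16 lower. Of all 17235 tested genes, 74.2% were called (37% higher and 37.2% lower). A change of at least 2-fold was called for 21 members, 61.8% of those tested, against 21% of all tested genes; 9 were higher (9.64% of all genes) and 12 lower (11.4%). ETS1-Low against RFP gave 29 called members (85.3%), 13 higher and 16 lower, where 74.1% of all tested genes were called (37.9% higher and 36.2% lower). Among them, 15 changed at least 2-fold (44.1%, against 20.6% of all tested genes), 7 higher and 8 lower (8.47% and 12.2% of all genes). In ETS1-High against ETS1-Low, 27 members were called (79.4%, against 59.2% of all tested genes), 17 higher and 10 lower (29.9% and 29.3% of all genes). Of these, 9 changed at least 2-fold (26.5%, against 9.74% of all tested genes), 8 higher and 1 lower (6.05% and 3.69% of all genes). A share called near that of all genes is no result about the members. Members that passed the filter only through the group in which they are high had to differ. Through RFP alone these were LEF1, RSPO2, RSPO3, SFRP1, WNT6 and WNT9A, all called at least 2-fold lower in both ETS1 groups. WNT16 passed only through the ETS1 groups and was called at least 2-fold higher in both. LGR6 passed through RFP and ETS1-Low only. The shares of 2-fold changes include these genes.

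The median size of the log2 fold change, without its sign, was 1.22 over the 34 members and 0.40 over all tested genes in ETS1-High against RFP. It was 0.91 and 0.41 in ETS1-Low against RFP, and 0.43 and 0.25 in ETS1-High against ETS1-Low. With signs, the members' medians were -0.08, -0.09 and 0.25, beside -0.01, 0.01 and -0.00 over all tested genes, so the members moved in both directions. Setting genes with few counts to their ratio or bound left the members' medians at these values. All 34 tested members were called in at least 1 of the 3 comparisons, and 19 in all 3. In the single comparisons 74.2%, 74.1% and 59.2% of all tested genes were called. Their shares over the 3 comparisons together were not counted, so these numbers are no result about the members. Both ETS1 groups are compared with the same RFP libraries, so the 2 comparisons with RFP are not independent of each other.

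**Figure D1:**
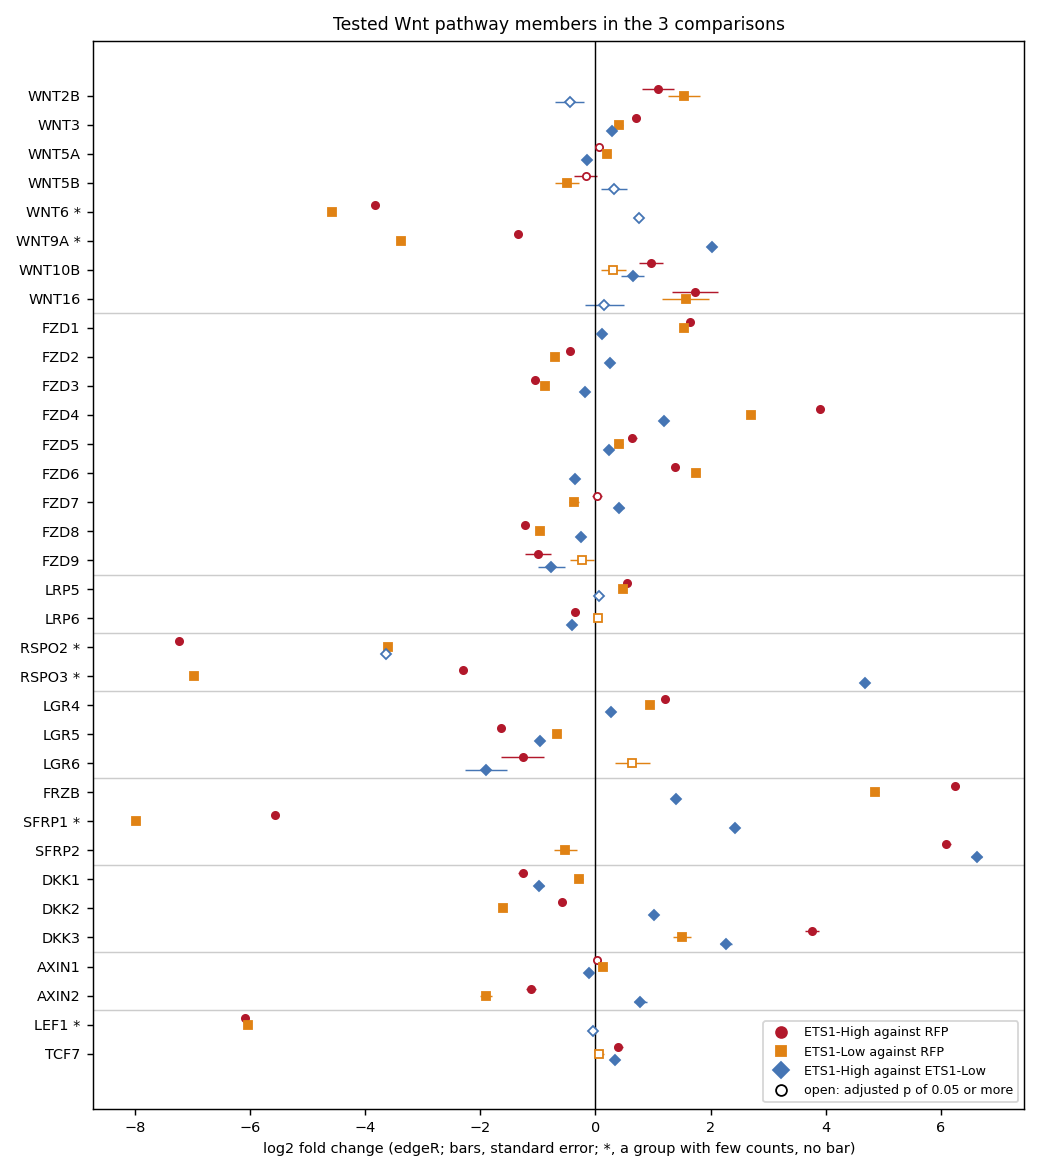
The plot of fold changes shows the log2 fold change (edgeR) of the 34 tested members on the horizontal axis for ETS1-High against RFP (circles), ETS1-Low against RFP (squares) and ETS1-High against ETS1-Low (diamonds); bars are standard errors, open symbols have an adjusted p of 0.05 or more, and an asterisk marks genes with few counts in a group, whose fitted values are no bound. FRZB, FZD4 and DKK3 lie to the right in all 3 comparisons, SFRP2 lies at 6.10 for ETS1-High and -0.52 for ETS1-Low against RFP, and SFRP1 and LEF1 lie far to the left of RFP in both ETS1 groups.

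Libraries held 39484704 to 46654734 expected counts. ETS1 was at 1.995 ± 0.174 CPM (counts scaled to library size; mean ± SD, n = 3 here and below) in RFP, 10.6 ± 0.298 in ETS1-Low and 19.1 ± 0.806 in ETS1-High, in the order of the labels. The Ewing sarcoma markers CD99, NKX2-2, NR0B1, PRKCB, STEAP1, LIPI, FLI1 and BCL11B were present in all 9 libraries and summed to 1112 to 1142 CPM in RFP, 1421 to 1447 in ETS1-Low and 1490 to 1528 in ETS1-High. Leukocyte markers (PTPRC, CD3E and LYZ) summed to at most 0.152 CPM in any library, with CD3E at 0 counts in all 9. Endothelial markers (PECAM1, VWF and CDH5) summed to 1.66 to 2.12, 3.56 to 3.99 and 4.97 to 5.56 CPM across RFP, ETS1-Low and ETS1-High; PECAM1 made up most of each sum and VWF was at 0 counts in all 6 ETS1 libraries. Epithelial markers (KRT5, KRT14 and EPCAM) summed to 0.064 to 0.145, 1.03 to 1.45 and 2.08 to 3.000 CPM, and the muscle markers MYOD1, MYOG and DES to 0.469 to 0.82, 0.0732 to 0.291 and 0.152 to 0.2002. Of the epithelial markers, only KRT5 rose in that order, at 0.0208, 0.857 and 2.39 CPM. KRT14 (0.0142, 0.206 and 0.0488 CPM) and EPCAM (0.069, 0.169 and 0.0372 CPM) were highest in ETS1-Low. The endothelial and epithelial sums, led by PECAM1 and KRT5, follow the same order as FRZB, FZD4 and DKK3. Their part in those results was not tested. In bulk RNA, fewer cells that express a gene and less RNA per cell cannot be told apart.

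The windows before the start sites of 4 members are printed here, because ETS factors such as ETS1 bind sites built around the letters GGAA and these genes showed different patterns: FRZB and FZD4 rose in both ETS1 groups, SFRP2 was high in ETS1-High alone, and DKK1 fell, most of all in ETS1-High. Each is the 250 bases before the RefSeq start (GRCh38.p14), written 5′ to 3′ on the strand of the gene, with every GGAA in capitals, either as read or on the other strand (TTCC).
FRZB, chr2:182866638-182866887, minus strand: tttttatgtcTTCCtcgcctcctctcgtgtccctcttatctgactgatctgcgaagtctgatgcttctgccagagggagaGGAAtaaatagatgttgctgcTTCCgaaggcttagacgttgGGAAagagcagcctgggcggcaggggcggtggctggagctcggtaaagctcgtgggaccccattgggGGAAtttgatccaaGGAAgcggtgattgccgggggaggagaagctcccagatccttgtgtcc
SFRP2, chr4:153789084-153789333, minus strand: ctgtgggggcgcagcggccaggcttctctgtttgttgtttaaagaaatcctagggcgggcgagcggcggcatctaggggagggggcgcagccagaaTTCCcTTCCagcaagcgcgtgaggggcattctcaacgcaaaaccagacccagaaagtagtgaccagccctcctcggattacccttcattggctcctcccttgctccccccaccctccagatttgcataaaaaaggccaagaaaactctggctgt
FZD4, chr11:86955396-86955645, minus strand: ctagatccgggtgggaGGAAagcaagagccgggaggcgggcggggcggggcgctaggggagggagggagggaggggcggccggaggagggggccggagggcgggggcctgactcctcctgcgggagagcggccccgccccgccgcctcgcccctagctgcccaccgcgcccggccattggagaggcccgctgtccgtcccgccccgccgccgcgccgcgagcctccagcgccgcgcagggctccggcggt
DKK1, chr10:52314031-52314280, plus strand: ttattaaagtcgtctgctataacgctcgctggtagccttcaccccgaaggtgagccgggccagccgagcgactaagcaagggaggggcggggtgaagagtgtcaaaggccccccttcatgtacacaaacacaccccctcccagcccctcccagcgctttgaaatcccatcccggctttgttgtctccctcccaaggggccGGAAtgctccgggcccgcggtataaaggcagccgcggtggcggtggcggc
The FRZB window held 6 such matches, SFRP2 held 2, and FZD4 and DKK1 held 1 each.

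Start-site windows were found in RefSeq for 35 of the 51 members, 22 of them tested, as 41 windows. GGAA on either strand stood in 36 of the 41 and in 92.7% of all 35116 windows of the same length. The longer core CGGAAG, which contains GGAA, stood in 6 of the 41 (FRZB, WNT10A, TCF7, LRP5, WNT5B and AXIN1) and in 16.5% of all windows. CCGGAAGT, which contains both, stood in 1 window, that of TCF7, and in 3.42% of all. The TCF and LEF motif CTTTGAT stood in none of the 41 and in 2.26% of all, on either strand. These are letter matches in a short window, and nothing on binding was measured.

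Among the ligands, WNT5A, which acts mainly without beta-catenin, made up most of the expression in all 3 groups. Per length, WNT5A was at 47.8 ± 1.89 FPKM (fragments scaled to gene length and library size) in RFP, 50.6 ± 0.935 in ETS1-Low and 46.3 ± 1.97 in ETS1-High. That was 90.9 ± 0.892%, 90.8 ± 0.517% and 87.9 ± 0.364% of the summed FPKM of the 19 ligands. By library, WNT5A CPM were 216, 200.04 and 203 in RFP, 238, 236 and 235 in ETS1-Low and 215, 214 and 215 in ETS1-High. The ETS1-Low libraries lay above all others, whereas those of ETS1-High lay within the range of RFP. The log2 fold change of WNT5A was 0.19 (SE 0.03; edgeR adjusted p 1.1e-07) in ETS1-Low against RFP and 0.06 (SE 0.03; edgeR adjusted p 0.0921) in ETS1-High against RFP, so that its change stayed under 2-fold. The ETS1-Low call was lost on the FPKM values (adjusted p 0.089 in limma on log2(FPKM + 1)), and the ETS1-High change passed when RFP library 1 was left out (adjusted p 0.0103).

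WNT3, an activator of beta-catenin signalling, was the second ligand per length, at 2.88 ± 0.21, 3.49 ± 0.184 and 4.36 ± 0.148 FPKM across RFP, ETS1-Low and ETS1-High. Against RFP it rose on the log2 scale by 0.70 (SE 0.07, adjusted p 5.9e-13) in ETS1-High and by 0.41 (SE 0.07, adjusted p 1.05e-06) in ETS1-Low (edgeR). WNT10B, also an activator of that branch, rose from 0.964 ± 0.343 to 1.88 ± 0.228 CPM in ETS1-High, by a log2 fold change of 0.97 (SE 0.20; edgeR adjusted p 3.24e-05); in ETS1-Low it was at 1.2 ± 0.109 CPM with an adjusted p of 0.186, which became 0.015 when RFP library 2 was left out. WNT5B was at 1.33 ± 0.0838, 0.946 ± 0.08995 and 1.19 ± 0.318 CPM, and its call in ETS1-Low (edgeR adjusted p 0.0328) did not survive leaving out either of RFP libraries 2 and 3 or ETS1-Low libraries 1 and 2 (adjusted p 0.0543, 0.088, 0.0763 and 0.0915).

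The other 4 tested ligands stayed under 1 CPM on average. WNT16 rose from 20 counts over the 3 RFP libraries to 52 in ETS1-Low and 60 in ETS1-High, or 1.57 and 1.72 on the log2 scale (edgeR adjusted p 0.000618 and 0.000148). WNT2B rose from 49 counts to 123 and 94, by 1.54 and 1.09 (edgeR adjusted p 2.43e-06 and 0.000696), with the ETS1-Low call lost on unfiltered FPKM values (adjusted p 0.0642, limma). WNT6 fell from 37 counts in RFP to 1 in ETS1-Low and 2 in ETS1-High. The RFP to ETS1-High ratio of WNT6 was 16.6 (exact 95% counting interval 4.28 to 142), and that of RFP to ETS1-Low was 31.8 (exact 95% counting interval 5.37 to 1291). WNT9A fell from 52 counts to 4 in ETS1-Low, a ratio of 11.2 (exact 95% counting interval 4.12 to 42.6), and to 18 in ETS1-High (log2 fold change -1.35; edgeR adjusted p 0.00659). The WNT9A change in ETS1-High was lost in the DESeq2 Wald test (adjusted p 0.0818) and without ETS1-High library 2 (0.0522). WNT6 and WNT9A passed the filter through RFP alone and WNT16 through the ETS1 groups alone, so the direction of these changes was fixed by the filter. The remaining 11 ligands (WNT1, WNT2, WNT3A, WNT4, WNT7A, WNT7B, WNT8A, WNT8B, WNT9B, WNT10A and WNT11) were not tested, with at most 9 counts in a library.

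The set of Frizzled receptors changed in make-up. Summed FPKM of the 10 receptors was 72.3 ± 0.779 in RFP, 83.6 ± 1.85 in ETS1-Low and 103 ± 1.33 in ETS1-High. In RFP, FZD2 and FZD8 together with FZD1 led, at 34.9 ± 1.02%, 26.3 ± 0.507% and 14.2 ± 0.724% of that sum. FZD4 held 3.17 ± 0.177% in RFP, 16.2 ± 0.362% in ETS1-Low and 30.8 ± 0.121% in ETS1-High. In ETS1-High, FZD4 and FZD1 (29 ± 0.339%) were ahead of FZD2 (16.8 ± 0.721%), and FZD8 held 7.35 ± 0.119%. Of 9 tested receptors, 4 rose, 4 fell and 1 did not pass the test in each of the 2 comparisons with RFP, so 88.9% were called, beside 74.2% and 74.1% of all tested genes in ETS1-High and ETS1-Low.

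**Figure D2:**
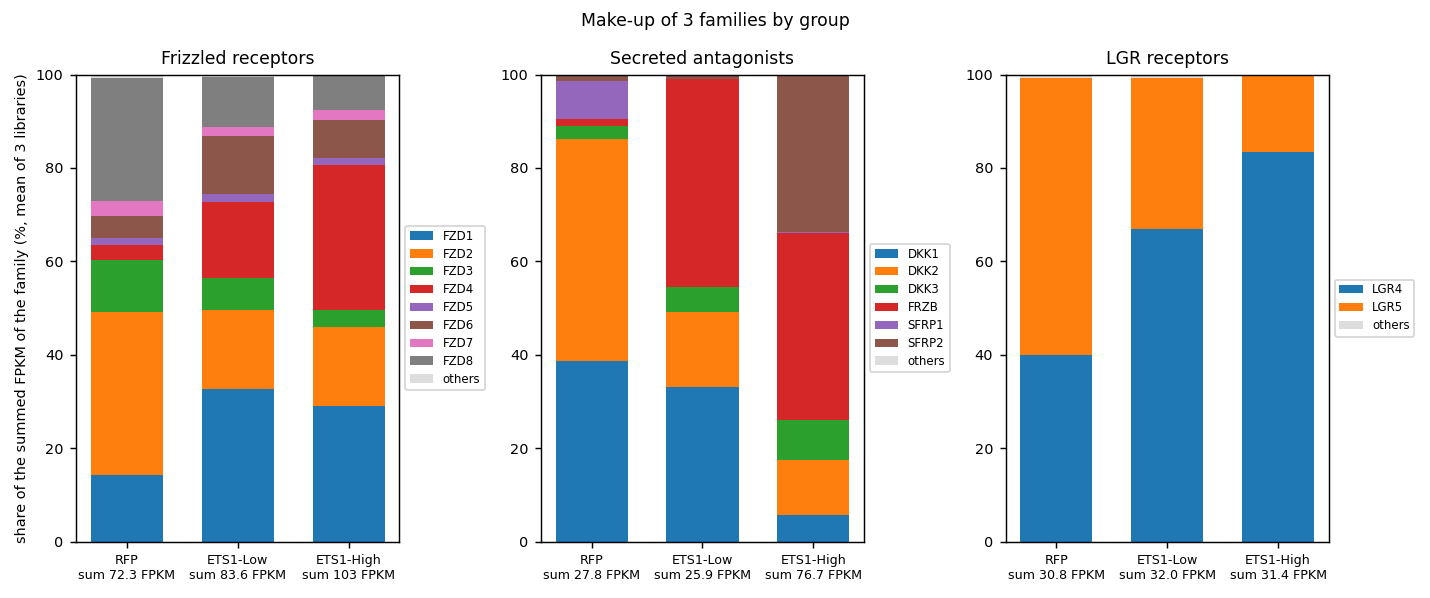
The bar plot of family make-up stacks each gene's share of the summed FPKM of its family (percent, mean of 3 libraries) across RFP, ETS1-Low and ETS1-High, for the Frizzled receptors, the secreted antagonists and the LGR receptors, with the family sum under each bar. The FZD4 share grows from 3.17% to 30.8%, the FRZB share from 1.56% to 44.5% and 40.2%, the SFRP2 share reaches 33.8% in ETS1-High, and LGR4 passes LGR5.

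FZD4, a Frizzled that also binds the non-Wnt ligand norrin (ENSG00000174804.3; chromosome 11, 86945679 to 86955395, minus strand), stood at 16.1, 14.7 and 16.1 CPM in the 3 RFP libraries. It had 100.1, 103 and 101 CPM in ETS1-Low and 236, 232 and 232 CPM in ETS1-High. The 3 groups did not overlap and rose in the order of the ETS1 levels. The log2 fold change was 3.9 (SE 0.04; edgeR adjusted p 6.24e-55) in ETS1-High against RFP, 2.7 (SE 0.04; edgeR adjusted p 3.96e-47) in ETS1-Low against RFP and 1.2 (SE 0.03; edgeR adjusted p 1.59e-35) between the ETS1 groups. Exons of FZD4 overlap those of PRSS23 on the other strand over 18.9% of their length; PRSS23 changed by -1.53 in ETS1-Low and by 0.26 in ETS1-High against RFP. The genes within 10 Mb of FZD4 had a median change of 0.44 (log2) in ETS1-High and of 0.38 in ETS1-Low.

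FZD1, a receptor used in beta-catenin signalling (ENSG00000157240.3; chromosome 7, 91264433 to 91271326, plus strand), stood at 70.2, 64.1 and 64 CPM in RFP, 195, 188 and 194 in ETS1-Low and 207, 209 and 205 in ETS1-High. Both ETS1 groups lay above RFP without overlap, and they differed little from each other. The log2 fold change against RFP was 1.65 (SE 0.03; edgeR adjusted p 5.64e-41) in ETS1-High and 1.54 (SE 0.03; edgeR adjusted p 1.57e-39) in ETS1-Low, and the step between the ETS1 groups was 0.11 (edgeR adjusted p 0.00246). FZD6, which has roles in planar cell polarity (ENSG00000164930.11; chromosome 8, 103298433 to 103332866, plus strand), stood at 11.8, 11 and 10.6 CPM in RFP, 37.2, 38.8 and 36.5 in ETS1-Low and 29.2, 28 and 30.4 in ETS1-High. Its highest libraries were those of ETS1-Low, and the groups did not overlap. FZD6 rose by 1.75 (SE 0.05; edgeR adjusted p 1.05e-33) in ETS1-Low and by 1.39 (SE 0.05; edgeR adjusted p 5.27e-29) in ETS1-High, and ETS1-High was lower than ETS1-Low (log2 -0.36; edgeR adjusted p 2.07e-09).

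FZD8, a receptor of the beta-catenin branch (ENSG00000177283.7; chromosome 10, 35638247 to 35642296, minus strand), stood at 69.1, 68.4 and 70.5 CPM in RFP, 33.9, 34.5 and 37.7 in ETS1-Low and 29.8, 29.2 and 30.2 in ETS1-High. All 6 ETS1 libraries lay below all 3 of RFP. FZD8 fell in both, with log2 values of -1.22 (SE 0.04; edgeR adjusted p 4.78e-32) for ETS1-High and -0.97 (SE 0.04; edgeR adjusted p 5.23e-28) for ETS1-Low. FZD3, which guides axons and planar polarity in the nervous system (ENSG00000104290.10; chromosome 8, 28494205 to 28574267, plus strand), stood at 60.1, 56.2 and 54 CPM in RFP, 31.9, 30.6 and 29.98 in ETS1-Low and 27.3, 26.9 and 27.7 in ETS1-High. The groups did not overlap. FZD3 fell in both, with log2 values of -1.06 (SE 0.04; edgeR adjusted p 2.8e-28) for ETS1-High and -0.88 (SE 0.04; edgeR adjusted p 4.36e-25) for ETS1-Low. Around FZD3, the genes within 10 Mb had a median of -0.36 for ETS1-High and 0.05 for ETS1-Low, and with that subtracted the ETS1-High change was under 2-fold.

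The other 4 tested Frizzled genes stayed under 2-fold in every comparison. FZD2, the most abundant receptor of RFP per length, fell in ETS1-High (log2 -0.43 (SE 0.04; edgeR adjusted p 8.95e-14)) and in ETS1-Low (log2 -0.69 (SE 0.04; edgeR adjusted p 8.21e-21)), from 25.2 ± 0.952 FPKM to 17.4 ± 0.626 and 14.2 ± 0.344. FZD5 rose by 0.64 in ETS1-High and 0.40 in ETS1-Low (edgeR adjusted p 7.72e-11 and 5.79e-06), with the ETS1-Low call lost on FPKM values (adjusted p 0.0816, limma). FZD7 fell in ETS1-Low (log2 -0.37; edgeR adjusted p 0.00015) and was at 0.03 in ETS1-High (adjusted p 0.734). FZD9 fell in ETS1-High (log2 -0.99; edgeR adjusted p 0.000116) and was at -0.23 in ETS1-Low (adjusted p 0.326). FZD10 had at most 2 counts in a library and was not tested.

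The co-receptors LRP5 and LRP6 differed by less than 2-fold. LRP5 rose from 69.2 ± 1.43 CPM in RFP to 96.7 ± 1.58 in ETS1-Low and 101 ± 3.16 in ETS1-High, by 0.48 (SE 0.03; edgeR adjusted p 1.3e-18) and 0.54 (SE 0.03; edgeR adjusted p 1.26e-20) on the log2 scale. The neighbours of LRP5 within 10 Mb had medians of 0.43 and 0.40 in the same comparisons. LRP6 was at 104 ± 0.697, 108 ± 1.95 and 81.4 ± 2.77 CPM and fell in ETS1-High, with a log2 value of -0.36 (SE 0.03; edgeR adjusted p 1.97e-14). In ETS1-Low its log2 fold change was 0.05 (edgeR adjusted p 0.138), and on FPKM values it was -0.13 (adjusted p 0.0381, limma).

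RSPO2 and RSPO3 were low in RFP and passed the filter on low counts through that group alone. That they were lower in the ETS1 groups was thus fixed by the filter. RSPO2 had 19, 15 and 27 counts in the RFP libraries, 2, 0 and 2 in ETS1-Low and 0 in all 3 of ETS1-High. It was at least 18.2-fold lower in ETS1-High than in RFP, taking a floor of 3 counts over the group, and the RFP to ETS1-Low ratio was 13.1 (exact 95% counting interval 4.87 to 49.7). RSPO3 had 18, 17 and 16 counts in RFP, 0 in all 3 libraries of ETS1-Low and 3, 2 and 4 in ETS1-High. RSPO3 was at least 14.6-fold lower in ETS1-Low, and the RFP to ETS1-High ratio was 5.08 (exact 95% counting interval 2.48 to 11.7). The RFP libraries lay above all 6 ETS1 libraries for both genes, although neither reached 1 CPM. RSPO1 and RSPO4 had 0 counts in every library.

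The R-spondin receptors LGR4 and LGR5 went in opposite directions. LGR4, a broadly expressed R-spondin receptor (ENSG00000205213.13; chromosome 11, 27365961 to 27472790, minus strand), stood at 51, 51.4 and 51.5 CPM in RFP, 99.3, 98.2 and 97.8 in ETS1-Low and 119, 119 and 119 in ETS1-High. Its groups rose in the order of the ETS1 levels without overlap. LGR4 rose by 1.21 (SE 0.03; edgeR adjusted p 5.86e-36) in ETS1-High and 0.94 (SE 0.03; edgeR adjusted p 8.55e-31) in ETS1-Low, where genes within 10 Mb had medians of 0.29 and 0.23; with the local median subtracted the ETS1-High change was under 2-fold. LGR5, an R-spondin receptor known as a marker of intestinal stem cells (ENSG00000139292.12; chromosome 12, 71439798 to 71586310, plus strand), stood at 66.5, 63.1 and 65.3 CPM in RFP, 40.6, 40.6 and 41.1 in ETS1-Low and 21.5, 20.2 and 20.8 in ETS1-High. The groups fell in the same order and did not overlap. Log2 values were -1.64 (SE 0.04; edgeR adjusted p 3.19e-37) for ETS1-High and -0.67 (SE 0.04; edgeR adjusted p 3.6e-22) for ETS1-Low against RFP, and -0.97 (SE 0.04; edgeR adjusted p 9.52e-26) for ETS1-High against ETS1-Low.

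Summed FPKM of the LGR receptors stayed close, at 30.8 ± 0.776 in RFP, 32 ± 0.485 in ETS1-Low and 31.4 ± 0.537 in ETS1-High. LGR5 held 59.3 ± 1.05% of it in RFP and 16.4 ± 0.763% in ETS1-High, whereas LGR4 went from 39.9 ± 0.877% to 66.9 ± 1.12% and 83.3 ± 0.796%. LGR6, the remaining family member, had 62 counts over the 3 RFP libraries, 83 in ETS1-Low and 23 in ETS1-High. It fell in ETS1-High (log2 -1.26, edgeR adjusted p 0.00259). LGR6 passed the filter through RFP and ETS1-Low only, so the direction of that change was fixed by the filter. In ETS1-Low the value was 0.64 (edgeR adjusted p 0.0561), which came under the threshold without ETS1-Low library 2 (0.0448).

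The secreted antagonists changed in make-up as well. Their summed FPKM, over the 5 SFRP-type genes and the 4 DKKs, was 27.8 ± 0.457 in RFP, 25.9 ± 1.59 in ETS1-Low and 76.7 ± 0.635 in ETS1-High. In RFP, DKK2 held 47.6 ± 2.67% and DKK1 38.7 ± 1.37% of the sum. FRZB held 1.56 ± 0.125% in RFP, 44.5 ± 3.6% in ETS1-Low and 40.2 ± 0.417% in ETS1-High, and SFRP2 held 1.46 ± 0.173%, 0.974 ± 0.128% and 33.8 ± 0.217%. The leading antagonists by level per length were thus DKK2 and DKK1 in RFP, FRZB and DKK1 in ETS1-Low, and FRZB and SFRP2 in ETS1-High.

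FRZB, also called SFRP3, a secreted Wnt-binding protein first known from cartilage (ENSG00000162998.4; chromosome 2, 182833275 to 182866637, minus strand), stood at 1.21, 1.34 and 1.13 CPM in RFP. It had 35.5, 34.7 and 36.4 CPM in ETS1-Low and 93.3, 93.5 and 94 CPM in ETS1-High. The libraries of each group lay close together and the groups did not overlap. Against RFP, FRZB was 76.3-fold higher in ETS1-High, or 6.25 (SE 0.06; edgeR adjusted p 1.23e-54) on the log2 scale, and 29-fold higher in ETS1-Low, or 4.86 (SE 0.07; edgeR adjusted p 3.32e-47). ETS1-High exceeded ETS1-Low by 1.4 (SE 0.04; edgeR adjusted p 3.38e-35). Neighbours of FRZB within 10 Mb had medians of 0.68 and 0.34 against RFP, far from the values of FRZB itself.

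SFRP2, a secreted Wnt binder expressed by fibroblasts (ENSG00000145423.4; chromosome 4, 153780591 to 153789083, minus strand), stood at 0.665, 0.811 and 0.656 CPM in RFP and 0.423, 0.6003 and 0.439 CPM in ETS1-Low. In ETS1-High it had 48, 49.7 and 48.8 CPM. All 3 ETS1-High libraries lay far above the 6 others, and those of ETS1-Low lay just under RFP. SFRP2 rose in ETS1-High by 6.1 (SE 0.09; edgeR adjusted p 1.1e-47) against RFP and by 6.62 (SE 0.10; edgeR adjusted p 1.82e-46) against ETS1-Low, the largest value of ETS1-High against ETS1-Low among the 34 members. The fall in ETS1-Low, a log2 value of -0.52 (SE 0.20; edgeR adjusted p 0.0317), was not called without RFP library 2 (adjusted p 0.129), ETS1-Low library 1 (0.114) or ETS1-Low library 3 (0.109), in the fit of those 2 groups alone (0.0762) and with no filter (0.0575). Local medians (genes within 10 Mb) were 0.59 for ETS1-High and 0.66 for ETS1-Low, so these genes were higher in both groups while SFRP2 itself was high in ETS1-High alone.

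SFRP1, another Wnt-binding antagonist (ENSG00000104332.11; chromosome 8, 41261962 to 41309473, minus strand), went the other way, with 8.98, 8.75 and 9.08 CPM in RFP, 0.0264, 0.0445 and 0.0244 in ETS1-Low and 0.305, 0.0445 and 0.224 in ETS1-High. The RFP libraries held 1285 counts together, those of ETS1-Low 4, and those of ETS1-High 12, 2 and 10. All 6 ETS1 libraries lay far under RFP, and ETS1-High library 2 lay at the level of the highest ETS1-Low library. SFRP1 passed the filter through RFP alone, so the direction of its change against RFP was fixed by the filter. The RFP to ETS1-Low ratio was 276 (exact 95% counting interval 108 to 1016), and ETS1-High was lower than RFP with a log2 value of -5.56 (SE 0.19; edgeR adjusted p 1.38e-29). Between the ETS1 groups the ratio was 5.76 (exact 95% counting interval 1.98 to 22.8), with ETS1-High higher (edgeR adjusted p 0.000683); that call was lost on unfiltered FPKM values (adjusted p 0.65, limma). SFRP4 and SFRP5 had at most 2 counts in a library.

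DKK3, a divergent Dickkopf that does not act through LRP5 and LRP6 in the way DKK1 does (ENSG00000050165.17; chromosome 11, 11956207 to 12009769, minus strand), stood at 0.644, 0.875 and 1.004 CPM in RFP, 2.17, 2.56 and 2.42 in ETS1-Low and 11.3, 12.1 and 11 in ETS1-High. Its groups rose in the order of ETS1 without overlap. DKK3 rose by 3.77 (SE 0.12; edgeR adjusted p 6.36e-32) in ETS1-High, 1.5 (SE 0.15; edgeR adjusted p 1.44e-12) in ETS1-Low and 2.27 (SE 0.10; edgeR adjusted p 9.43e-25) between the ETS1 groups, on the log2 scale; the ETS1-Low call was lost on unfiltered FPKM values (adjusted p 0.0555, limma). Exons of DKK3 overlap those of USP47 on the other strand over 47.5% of their length, and whether counting used strand is not stated. USP47 was at 69.2 ± 0.69, 72.7 ± 1.34 and 85.5 ± 1.72 CPM across RFP, ETS1-Low and ETS1-High, with 0.31 (log2) for ETS1-High against RFP, and its part in the DKK3 values was not tested.

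DKK1, the prototype inhibitor of LRP5 and LRP6 (ENSG00000107984.9; chromosome 10, 52314281 to 52318042, plus strand), stood at 11.2, 12.4 and 11.4 CPM in RFP, 10.1, 10.2 and 8.4 in ETS1-Low and 4.72, 4.85 and 4.97 in ETS1-High. The 3 groups did not overlap, and ETS1-Low lay close to RFP. DKK1 fell in both, with log2 values of -1.27 (SE 0.08; edgeR adjusted p 2.63e-19) for ETS1-High and -0.29 (SE 0.08; edgeR adjusted p 0.000715) for ETS1-Low, the second call being lost in limma on log2(FPKM + 1) with no filter (adjusted p 0.0864). DKK2, which can inhibit or activate LRP6 depending on the cell (ENSG00000155011.8; chromosome 4, 106921802 to 107283806, minus strand), stood at 45.1, 41.8 and 41.5 CPM in RFP, 13.7, 14.3 and 14.4 in ETS1-Low and 27.7, 29.1 and 28.5 in ETS1-High. ETS1-Low libraries were the lowest and ETS1-High ones stood between them and RFP, without overlap. DKK2 fell in both, with log2 values of -1.6 (SE 0.05; edgeR adjusted p 2.05e-33) for ETS1-Low and -0.59 (SE 0.04; edgeR adjusted p 2.29e-17) for ETS1-High, and ETS1-High was above ETS1-Low by 1.01 (SE 0.05; edgeR adjusted p 1.44e-23). The local median around DKK2 was -0.43 for ETS1-Low and -0.39 for ETS1-High. DKK4 had 0 counts in every library.

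**Figure D3:**
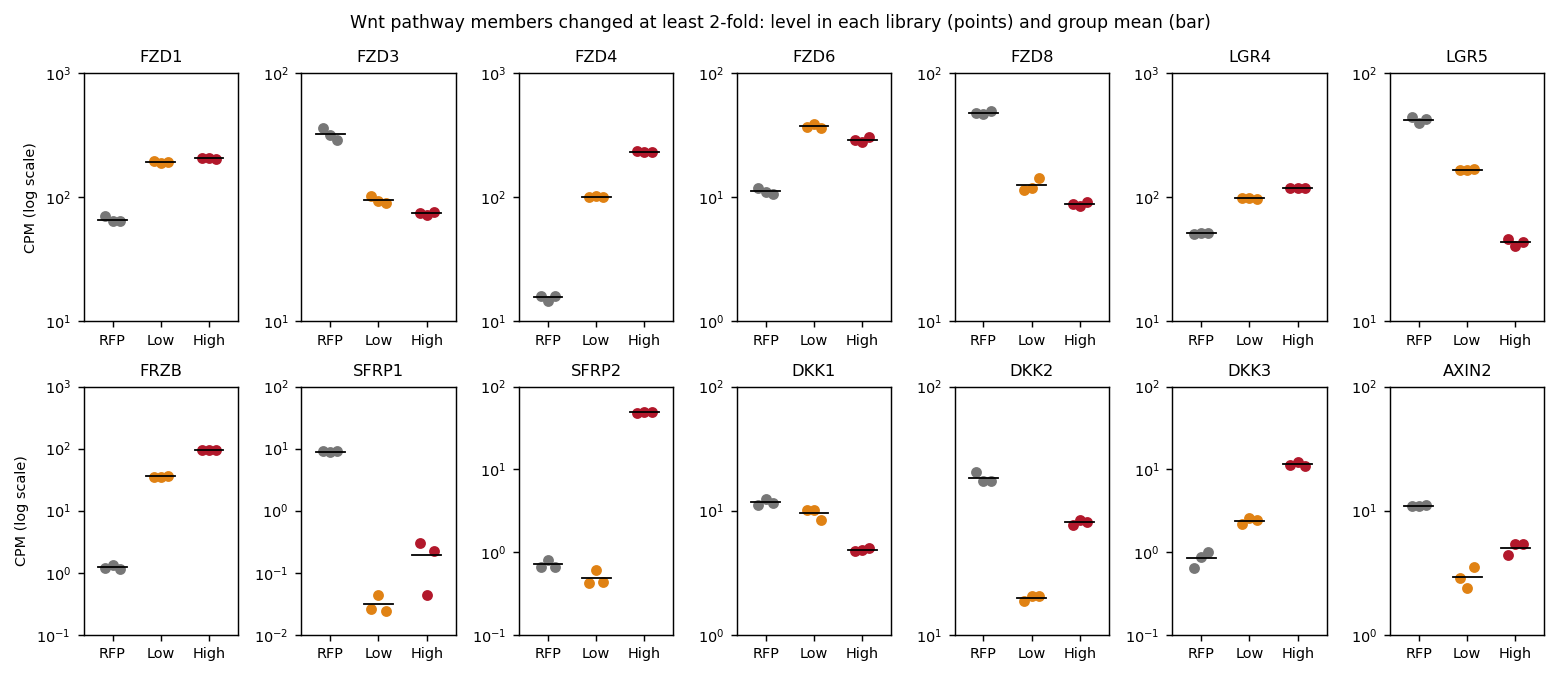
The panels by library plot CPM on a log axis for the 14 members that average at least 1 CPM and changed at least 2-fold, with a point per library and a bar at the mean of 3 libraries in RFP, ETS1-Low (Low) and ETS1-High (High). FRZB climbs from 1.23 to 35.5 and 93.6 CPM, SFRP2 is at 48.8 CPM in ETS1-High alone, and FZD6, SFRP1, DKK2 and AXIN2 have their extreme in ETS1-Low.

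Inside the cell, AXIN2 fell and AXIN1 stayed under 2-fold. AXIN2, a member of the complex that marks beta-catenin for breakdown and a widely used target gene of the same pathway (ENSG00000168646.12; chromosome 17, 65528563 to 65561648, minus strand), stood at 11, 10.9 and 11 CPM in RFP, 2.88, 2.4 and 3.54 in ETS1-Low and 4.37, 5.34 and 5.35 in ETS1-High. All ETS1 libraries lay under RFP, those of ETS1-Low the lowest, and no groups overlapped. The log2 fold change was -1.9 (SE 0.10; edgeR adjusted p 5.04e-22) in ETS1-Low, -1.12 (SE 0.09; edgeR adjusted p 3.23e-15) in ETS1-High and 0.78 (SE 0.11; edgeR adjusted p 4.5e-08) between the ETS1 groups. AXIN1, the constitutive scaffold of that complex, was at 48.5 ± 0.869, 53.3 ± 1.37 and 49.1 ± 2.2 CPM across RFP, ETS1-Low and ETS1-High. Its log2 fold change of 0.14 in ETS1-Low (edgeR adjusted p 0.00111) turned to -0.02 on FPKM values (adjusted p 0.674, limma).

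LEF1, the nuclear partner of beta-catenin that is itself often a target of the pathway (ENSG00000138795.9; chromosome 4, 108047545 to 108168956, minus strand), had 28, 32 and 43 counts in the RFP libraries, 0, 1 and 0 in ETS1-Low and 0, 1 and 0 in ETS1-High. It was thus low in RFP, at 0.715 ± 0.152 CPM, and nearly absent from the counts of both ETS1 groups. LEF1 passed the filter through RFP alone, so that it was lower in the ETS1 groups was fixed by the filter. The ratio of RFP to ETS1-High was 92.4 (exact 95% counting interval 16.2 to 3685), and of RFP to ETS1-Low 88.6 (exact 95% counting interval 15.6 to 3534). LEF1 and DKK2 lie in the same stretch of chromosome 4, where the local median around LEF1 was -0.39 for ETS1-High and -0.43 for ETS1-Low. TCF7, its relative, rose from 6.52 ± 0.171 to 8.62 ± 0.426 CPM in ETS1-High, by 0.40 (SE 0.08; edgeR adjusted p 1.6e-05). In ETS1-Low it was at 6.85 ± 0.484 CPM (log2 fold change 0.07, adjusted p 0.465, edgeR).

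Other genes of the pathway were taken from 7 lists drawn up by function, some genes standing in more than 1 list. Changes of 2-fold and more stood mainly among the other antagonists, the planar polarity genes and the common target genes, with 5 genes in each for ETS1-High against RFP, where 21% of all tested genes changed as much. In the list of alternative receptors and planar polarity genes, 13 of 14 were tested; 4 were higher and 8 lower in ETS1-High against RFP (median -0.44), and 3 higher and 10 lower in ETS1-Low (median -0.51), beside medians of -0.01 and 0.01 over all tested genes. The calls are 92.3% and all of the tested genes of that list, beside 74.2% and 74.1% of all tested genes. They include PRICKLE1, which passed the filter through RFP alone, so that its fall was fixed by the filter. ROR2, a receptor of WNT5A, fell from 14.7 ± 0.774 CPM in RFP to 0.232 ± 0.0422 in ETS1-Low and 0.419 ± 0.0364 in ETS1-High, with log2 values of -5.95 (SE 0.15; edgeR adjusted p 3.29e-37) and -5.12 (SE 0.13; edgeR adjusted p 1.28e-36). VANGL2, a core planar polarity gene, was at 68.9 ± 0.595, 2.5 ± 0.0922 and 11.8 ± 0.209 CPM and fell in both, with -4.78 (SE 0.06; edgeR adjusted p 4.39e-50) for ETS1-Low and -2.54 (SE 0.05; edgeR adjusted p 2.48e-43) for ETS1-High. PRICKLE2, from the same core set, fell too, with -1.98 and -1.36 (edgeR adjusted p 3.23e-35 and 1.79e-29).

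Of the 11 other antagonists, 9 were tested; 1 was higher, 4 lower and 4 not called in ETS1-High against RFP (median -0.20), and 1 higher, 5 lower and 3 not called in ETS1-Low (median -1.80). These calls are 55.6% and 66.7% of the tested antagonists, beside 74.2% and 74.1% of all tested genes. The gene that rose in both was APCDD1, a membrane-bound Wnt inhibitor, from 40.6 ± 1.16 CPM in RFP to 348 ± 3.18 in ETS1-Low and 559 ± 9.26 in ETS1-High. Its log2 fold change was 3.78 (SE 0.03; edgeR adjusted p 2.11e-56) in ETS1-High and 3.1 (SE 0.03; edgeR adjusted p 9.5e-53) in ETS1-Low, where genes within 10 Mb had medians of 0.50 and 0.55. DACT2, a Dishevelled-binding regulator, fell, with -4.29 (SE 0.10; edgeR adjusted p 5.02e-39) for ETS1-High and -2.46 (SE 0.08; edgeR adjusted p 2.31e-32) for ETS1-Low. NKD1, a feedback inhibitor induced by the pathway, fell, with -1.68 and -2.23 (edgeR adjusted p 1.13e-27 and 1.09e-31).

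The cytoplasmic relay, 14 genes from Dishevelled to GSK3 and the tankyrases, held 4 higher, 8 lower and 2 uncalled genes in ETS1-High (median -0.09) and 4, 7 and 3 in ETS1-Low (median -0.16), none of them changed 2-fold. The relay's share of calls was 85.7% and 78.6%, beside 74.2% and 74.1% of all tested genes. In ETS1-High against RFP the smallest p-values belonged to CSNK1A1, a kinase that primes beta-catenin, and to TNKS2 and TNKS, which destabilise Axin. They fell, with -0.43, -0.39 and -0.36 in ETS1-High (edgeR), and the genes within 10 Mb of each had medians of -0.41, -0.47 and -0.35. Among the 11 nuclear effectors, 7 were higher, 2 lower and 2 uncalled in ETS1-High (median 0.38), and 6, 3 and 2 in ETS1-Low (median 0.08), so 81.8% were called in both, beside 74.2% and 74.1% of all tested genes. TLE4, a corepressor of the TCF proteins, rose from 4.82 ± 0.352 CPM in RFP to 19.2 ± 1.06 in ETS1-High, by 1.99 (SE 0.08; edgeR adjusted p 2.17e-28), and was at 4.45 ± 0.483 CPM in ETS1-Low (adjusted p 0.277). TCF7L1, the TCF that acts mostly as a repressor, rose by 0.84 and 0.50 in ETS1-High and ETS1-Low, and TLE5 by 0.47 and 0.39 (edgeR).

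Of the 16 common beta-catenin target genes, 10 were tested; 5 were higher, 4 lower and 1 uncalled in ETS1-High (median 0.18), and 6, 3 and 1 in ETS1-Low (median 0.28), so 9 of 10 were called in both, beside 74.2% and 74.1% of all tested genes. CD44, a hyaluronan receptor, rose from 2.07 ± 0.233 CPM in RFP to 17 ± 1.81 in ETS1-High, by 3.04 (SE 0.10; edgeR adjusted p 2.15e-32). The ETS1-Low call of CD44, a rise, was lost in the DESeq2 Wald test (adjusted p 0.166) and on FPKM values. In edgeR it was lost without RFP library 1 (adjusted p 0.168) or 3 (0.101) and without ETS1-Low library 2 (0.0965) or 3 (0.0919). TWIST1, a mesenchymal transcription factor, rose by 1.96 (SE 0.05; edgeR adjusted p 9.88e-36) in ETS1-High and by 0.28 in ETS1-Low (adjusted p 4.2e-05). TCF4, which encodes an E protein and is not TCF7L2, rose by 1.17 and 0.84 (edgeR). AXIN2 and LEF1, described above and not counted in these lists, fell in both ETS1 groups, as did NKD1. The direction for LEF1 was fixed by the filter, which it passed through RFP alone. Of 3 tested secretion genes, 2 were called in each comparison with RFP: WLS, the carrier of Wnt proteins to the surface, rose by 0.59 and 0.51 in ETS1-High and ETS1-Low, and PORCN, which acylates them, fell, with -0.22 and -0.36 (edgeR); the ETS1-High call of PORCN (adjusted p 0.0283) was lost when any of RFP libraries 2 and 3 or ETS1-High libraries 2 and 3 was left out (adjusted p 0.101, 0.116, 0.106 and 0.079). All 3 tested receptor turnover genes were called in both. The calls in these short lists of 3 tested genes stand beside 74.2% and 74.1% of all tested genes. KREMEN2, a DKK receptor, fell, with -2.48 and -1.37 in ETS1-High and ETS1-Low, and its relative KREMEN1 rose by 0.78 and 0.85 (edgeR). ZNRF3, which removes Frizzled from the surface, rose by 0.24 and 0.28 (edgeR), with both ZNRF3 calls lost on FPKM values.

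**Figure D4:**
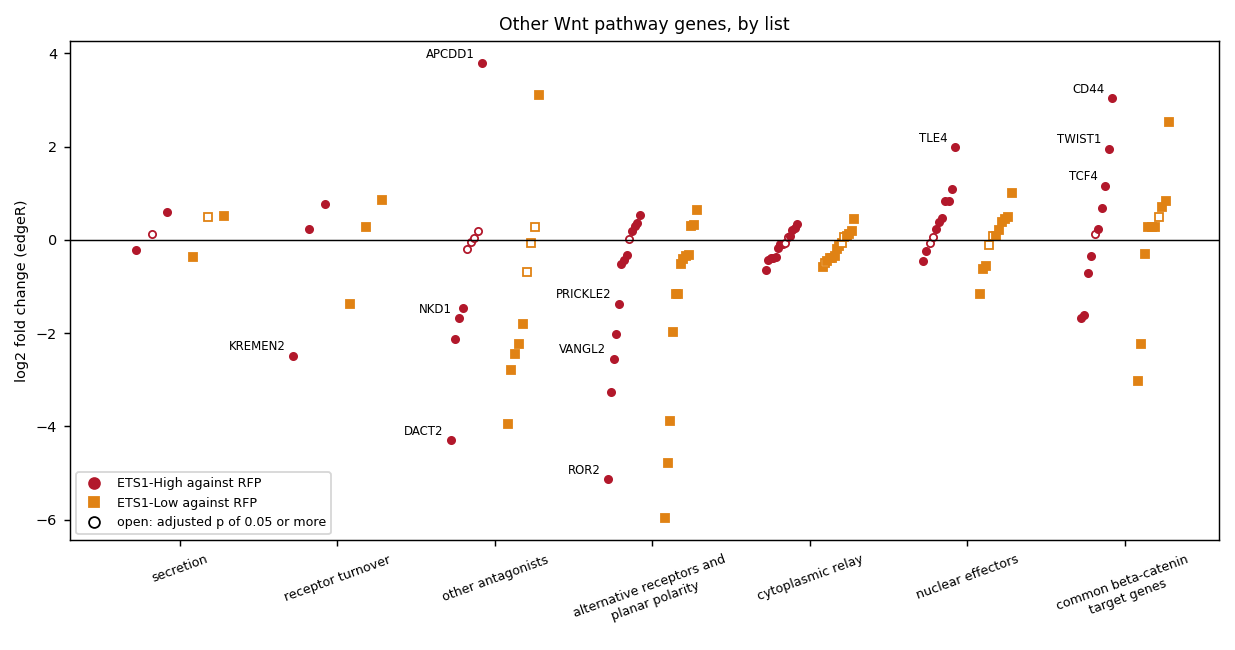
The plot of the other pathway genes shows the log2 fold change (edgeR) of each tested gene by list, for ETS1-High (circles) and ETS1-Low (squares) against RFP, with open symbols for an adjusted p of 0.05 or more. The cytoplasmic relay stays near 0, whereas ROR2 and VANGL2 reach -5.95 and -4.78 in ETS1-Low and APCDD1 reaches 3.78 in ETS1-High.

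Medians over neighbouring genes were set beside the members' own changes. Over the 34 members, the median of the genes within 10 Mb ran from -0.39 (LEF1 and DKK2) to 0.68 (FRZB) with ETS1-High against RFP, and between -0.43 and 0.66 (SFRP2) in ETS1-Low. After this median was subtracted, 19 of the 21 members called at least 2-fold in ETS1-High were still past 2-fold, and the 2 others were FZD3 and LGR4. In ETS1-Low, all 15 were past 2-fold, and in ETS1-High against ETS1-Low 8 of 9, the exception being DKK2. WNT6 fell although genes within 10 Mb had medians of 0.56 and 0.32. The part of these local shifts in the members' changes was not tested further. Of the 14 members given by library, 7 share exon sequence with a gene on the other strand: DKK3 and FZD4 as stated, DKK1 over 10.2% of its exon length, and FZD8, LGR5, FZD6 and LGR4 over less than that. AXIN2 shares 25.3% with ENSG00000266076 on its own strand. Among the other tested members, WNT2B (21.5%), RSPO3 (15.7%) and, over less, LEF1 and TCF7 share exon length with a gene on the other strand.

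**Figure D5:**
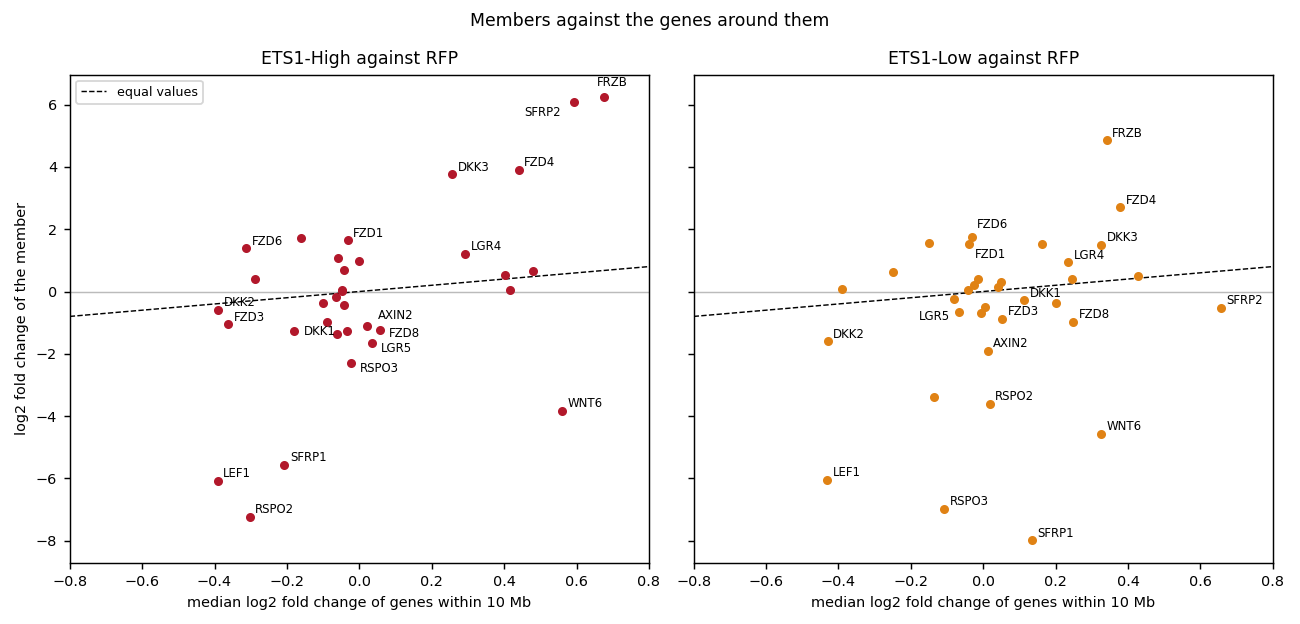
Each point of the plot of neighbours is 1 of the 34 tested members, with the median log2 fold change of the genes within 10 Mb on the horizontal axis and the member's own log2 fold change (edgeR) on the vertical axis, for ETS1-High (left) and ETS1-Low (right) against RFP; the dashed line marks equal values. FRZB, at 6.25 against a local 0.68, lies far above the line, SFRP2 lies under it in ETS1-Low at -0.52 against 0.66, and LEF1 and SFRP1 lie far below it in both panels.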

How the data were processed

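RNA-seq of TC-32 cells was deposited by the authors as 2 tables by gene, 1 of expected counts and 1 of FPKM values, both from RSEM per the file headers. The submitters' processing notes name cutadapt 4.4, STAR 2.7.3, Subread 2.0.3 with featureCounts, limma 3.38.3 and the build GRCh38, without giving their order; how strand was used in counting is not given in the sources used here, although the kit is stranded per the labels' protocols. All 9 columns were matched to libraries by name, with 0 left over, and groups follow the sample titles.

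Expected counts were rounded and tested with edgeR 4.0.16 in R 4.3.3 (quasi-likelihood, robust, TMM, filterByExpr by group, 17235 genes), in 1 fit of all 9 libraries with the group as factor. P-values were adjusted by Benjamini-Hochberg over all tested genes and called under 0.05. Levels are CPM on TMM-scaled library sizes, and an SE is the absolute log2 fold change divided by the square root of the F statistic. A group at 0 counts was set to a floor of 3 counts, which is 0.0615 to 0.0793 CPM in 1 library. Where a group held 1 to 10 counts, the ratio is given with an exact 95% interval. Floor and intervals cover counting error only, since the libraries have no molecular identifiers. The fit was tested on simulated data with known changes.

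Values in every library are given for the 14 members with a mean of at least 1 CPM that were called with at least a 2-fold change; all others are given by counts or single values. Of each pathway list, the called genes lowest in p for ETS1-High against RFP are named, 3 at most. Members and lists were chosen with earlier results of these data known. Positions are those of GENCODE v44 on GRCh38, found for all 51 members by identifier, and start-site windows are from RefSeq (GRCh38.p14). Alternatives were DESeq2 size factors, the DESeq2 1.42.0 Wald test, other filters, a replicate block, fits of 2 groups, leaving out each library, and limma 3.58.1 on log2 FPKM with a pseudocount of 1 or 0.1. One marker gene of the lists is not reported here and was left out of its list's sum.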

Additional observations from a re-analysis of the deposited data

Results flagged for a closer look

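In 5 genes among the members and the pathway lists, the ETS1-Low and ETS1-High libraries lay on opposite sides of RFP. Both calls and the difference between the ETS1 groups passed an adjusted p of 0.05 in edgeR. How many of all tested genes meet the same rule was not counted, so the number is no result about the pathway. SFRP2, the Wnt-binding antagonist, had log2 fold changes of 6.1 (ETS1-High) and -0.52 (ETS1-Low) against RFP, and 6.62 in ETS1-High against ETS1-Low (edgeR adjusted p 1.82e-46); its ETS1-Low call was lost without RFP library 2 (adjusted p 0.129), ETS1-Low library 1 (0.114) or ETS1-Low library 3 (0.109). TLE1, a corepressor of the TCF proteins, had 1.09 and -1.15 against RFP and 2.24 between the ETS1 groups (edgeR adjusted p 3.56e-16), from 2.75 ± 0.648 CPM in RFP, 1.24 ± 0.252 in ETS1-Low and 5.85 ± 0.109 in ETS1-High. Genes within 10 Mb of TLE1 had medians of -0.06, -0.61 and 0.56 in the same 3 comparisons. GREM1, a secreted BMP antagonist, had -1.62 and 2.53 against RFP and -4.15 between the ETS1 groups (edgeR adjusted p 1.41e-47), at 13 ± 0.759, 75 ± 0.916 and 4.23 ± 0.251 CPM. ROR1, a receptor related to ROR2, had 0.20 and -0.51 against RFP and 0.71 between the ETS1 groups (edgeR adjusted p 1.82e-16), and its ETS1-High call was lost on FPKM values (adjusted p 0.0669, limma). DVL1, a Dishevelled protein, had -0.08 and 0.44 against RFP and -0.52 between the ETS1 groups (edgeR adjusted p 4.28e-19). The ETS1-High call of DVL1 was lost without RFP library 3 (adjusted p 0.0909) or ETS1-High library 3 (0.238), and with no filter on low counts (0.0927).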

How the results depend on the processing

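Leaving out each library in turn, the number of members called ran from 29 to 31 in ETS1-High against RFP, 27 to 29 in ETS1-Low against RFP and 25 to 28 in ETS1-High against ETS1-Low, and the number of all genes called from 12392 to 12971, 12401 to 12977 and 9504 to 10337. With a mean FPKM of at least 1 required, 22 members could be tested by limma, and 19 (ETS1-High) and 18 (ETS1-Low) were called against RFP with either pseudocount, beside 71.7% or 71.5% and 71.4% or 71.3% of all 13401 genes in the same fits. On FPKM values the ETS1-Low log2 fold change of AXIN1 turned to between -0.0213 and -0.0202 and that of LRP6 to -0.13. FPKM values were used without TMM scaling, whose factors were 1.05 to 1.07 in RFP, 0.958 to 0.968 in ETS1-Low and 0.974 to 0.987 in ETS1-High. In limma on log2(FPKM + 1) at a mean of at least 1, medians over all genes were -0.08 (ETS1-High) and -0.07 (ETS1-Low) against RFP, beside -0.01 and 0.01 in edgeR. The part of this scaling in calls lost on FPKM values was not tested. Of all genes called, 49.8% were higher for ETS1-High and 51.2% for ETS1-Low against RFP, and 38.1% and 36.5% in limma on log2(FPKM + 1) with no filter. Replicate numbers did not pair the libraries: deviations of libraries with the same number correlated at -0.03 to 0.03. With the replicate number as a block, 12701, 12729 and 10122 genes were called. Low values limit members with few or no counts in a group, since 3 libraries at 0 counts allow up to 3 counts.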

Other observations

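Of the pathway list genes not described so far, 8 were called with a change of at least 2-fold in 1 or both comparisons with RFP. Of all tested genes, 21% (ETS1-High) and 20.6% (ETS1-Low) changed as much. The share of all tested genes in 1 or both was not counted, so the number is no result about the lists. TLE2, a corepressor of the TCF proteins, rose, from 13.5 ± 0.979 CPM in RFP to 27.1 ± 0.746 in ETS1-Low and 24 ± 1.35 in ETS1-High, by 1.01 and 0.83 on the log2 scale (edgeR adjusted p 2.97e-22 and 8.97e-19). The other 7 were lower in at least 1 ETS1 group. DACT1, a Dishevelled-binding relative of DACT2, was at 5.36 ± 0.311 CPM in RFP, 0.343 ± 0.0882 in ETS1-Low and 1.24 ± 0.161 in ETS1-High, with log2 fold changes of -3.94 and -2.12 against RFP (edgeR adjusted p 3.81e-25 and 1.69e-18). CELSR3, a planar polarity cadherin, was at 16.4 ± 0.937, 7.35 ± 0.73 and 4.06 ± 0.0933 CPM, with changes of -1.15 and -2.01 (edgeR adjusted p 1.76e-19 and 7.16e-28). TNFRSF19, a beta-catenin target, was at 2.79 ± 0.141, 0.34 ± 0.0411 and 1.7 ± 0.0298 CPM, with changes of -3.03 and -0.71 (edgeR adjusted p 7.99e-19 and 5.06e-05). GPC4, a heparan sulphate proteoglycan that binds Wnt proteins, was at 99 ± 1.86, 44.5 ± 0.972 and 69.1 ± 0.908 CPM and fell in both, with -1.15 for ETS1-Low and -0.52 for ETS1-High (edgeR adjusted p 9.69e-34 and 3.86e-20). DACT3, of the DACT1 family, was at 1.8 ± 0.318, 0.259 ± 0.12 and 0.648 ± 0.0575 CPM. PRICKLE1, a planar polarity gene, was at 0.985 ± 0.195, 0.0643 ± 0.0508 and 0.0966 ± 0.08997 CPM. PRICKLE1 passed the filter on low counts through RFP alone, so the direction of its change was fixed by the filter. SOSTDC1, a secreted antagonist called in ETS1-Low alone, was at 0.569 ± 0.105, 0.159 ± 0.0857 and 0.647 ± 0.256 CPM. CELSR3 was lowest in ETS1-High and the other 6 in ETS1-Low. Under 2-fold, and chosen after their values were seen, CCND1, a cyclin and target gene, rose from 1548 ± 42.4 CPM in RFP to 2518 ± 20.3 in ETS1-Low and 2498 ± 15.1 in ETS1-High, by 0.70 and 0.69 (edgeR adjusted p 6.77e-27 and 1.25e-26). MYC, another target gene, was at 191 ± 3.24, 156 ± 2.53 and 149 ± 6.81 CPM, with changes of -0.29 and -0.36 (edgeR adjusted p 7.29e-12 and 1.43e-14). CTNNB1, which encodes beta-catenin, was at 255 ± 5.66, 202 ± 0.182 and 239 ± 6.43 CPM, with changes of -0.34 and -0.10 (edgeR adjusted p 1.18e-14 and 0.00271).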
